A study of Rattus norvegicus with 6 samples.

Results

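The miR-15 family, with its cell-cycle members miR-16, miR-195, miR-497, miR-322 and miR-503, was examined in rat kidney after aristolochic acid (AA), a plant nephrotoxin and carcinogen that forms DNA adducts. Its members were taken by name, as the array probes annotated as rno-miR-15b, rno-miR-16, rno-miR-195, rno-miR-497, rno-miR-322 or rno-miR-503, without the passenger strands whose names end in an asterisk, which gave 6 of the 5560 probes and 6 of the 679 with a rat name. All 6 animals were male Big Blue rats of the Fisher 344 strain, which carry a bacterial reporter transgene for mutation assays in both groups alike. Controls (replicates 13, 14 and 15) were untreated, and AA rats (replicates 19, 20 and 21) received AA as its sodium salt by gavage at 10.0 mg/kg, on 5 days of each week over 12 weeks, starting at 6 weeks of age. The rats were killed 1 day after dosing ended, and total kidney RNA of each rat was hybridised to 1 single-colour array of vertebrate miRNA probes. The controls are described as untreated and not as gavaged with vehicle, so AA and the gavage itself cannot be told apart.

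miRNAs direct the silencing machinery to messenger RNAs mainly through the seed, the bases near their 5′ end that pair with the target. Members of the miR-15 family share that seed and are known for restraining the cell cycle through targets such as cyclins D and E, their kinases and Cdc25a, and for targeting Bcl2. miR-15b and miR-16 are made from a shared transcript, as are miR-497 and miR-195, and miR-322 (the rodent counterpart of human miR-424) and miR-503.

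The mature sequences are shown because the seed defines the family and because the members differ mainly in the letters beyond it, which an array probe must tell apart. All 6 were matched to RefSeq, assembly GRCr8, and are printed 5′ to 3′ with the seed, bases 2 to 8, in capitals.

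rno-miR-15b: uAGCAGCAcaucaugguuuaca
rno-miR-16: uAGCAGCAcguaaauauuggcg
rno-miR-195: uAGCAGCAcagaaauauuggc
rno-miR-497: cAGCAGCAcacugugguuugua
rno-miR-322: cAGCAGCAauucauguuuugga
rno-miR-503: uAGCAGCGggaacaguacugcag

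The seed was the same in 5 members and differed at base 8 in rno-miR-503, while bases 2 to 7 were shared by all 6. rno-miR-16 and rno-miR-195 were the closest, 3 edits (substitutions, insertions or deletions) apart, although they are encoded on different chromosomes. rno-miR-497 and rno-miR-503 were the most distant, at 12 edits. In GRCr8 the mature rno-miR-15b lies at chr2:155555197-155555218 and rno-miR-16 at chr2:155555343-155555364, both on the plus strand, and both hairpins lie inside the gene Smc4 with 51 bases between them. The mature rno-miR-497 lies at chr10:55450172-55450193 and rno-miR-195 at chr10:55450509-55450529, both on the plus strand, with 255 bases between the hairpins. On the minus strand, rno-miR-322 lies at chrX:137726198-137726219 and rno-miR-503 at chrX:137725899-137725921, with 220 bases between the hairpins, and both lie inside the long non-coding RNA gene LOC102550366.

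The values below are of 2 kinds. Deposited intensity is the authors' normalized, linear signal, on which 32 was the detection threshold of the methods, and 1132 probes that reached it on at least 1 array were tested. Log2 signal was recomputed from the scanner intensity (background correction, then quantile normalization, which gives every array the same distribution of values), and changes are AA minus control on that scale with limma's standard error (SE) and a p-value adjusted by the Benjamini-Hochberg method over the 1132 probes, called under 0.05. The replicates were separate animals, 3 per group, and an exact permutation test of 3 against 3 cannot give a p below 0.1. Array AA 20 stood apart as the dimmest: its mean probe signal above empty spots was 149, against 263 to 484 on the other arrays, and it had 717 probes at or above 32, against 801 to 875. It was the lowest of the 6 arrays in log2 signal for 46.5% of the tested probes. Of the 9 kidney epithelial miRNAs checked, 8, such as miR-192 and miR-200b, were at or above 32 on all arrays, and miR-204 was below 32 on all; both brain miRNAs checked, miR-9 and miR-124, summed to between 1.07 and 5.73 per array.

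The members rno-miR-15b, rno-miR-16 and rno-miR-195 were detected on all 6 arrays. rno-miR-497 and rno-miR-322 reached 32 on 2 arrays and on 1 array, and rno-miR-503 on none. Of the 5 tested, 4 were higher in AA and 1 was lower, but 0 passed the adjusted threshold in limma, against 2 of 1132 tested probes, or 0.177%. At an unadjusted p under 0.05 the members again gave 0, against 4.95% of all tested probes. The median change of the 5 was 0.38 on the log2 scale, beside a median of −0.05 and a 5th to 95th percentile of −0.94 to 0.69 over all tested probes. The 5 include 2 probes below 32 on some arrays and leave out rno-miR-503, so their median does not stand for all 6 members. rno-miR-322, counted among the 4 higher, entered the tested set only through AA 19. Nothing is therefore read from that count or from the median.

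rno-miR-15b, encoded with rno-miR-16, had the largest fitted difference of the 3 members detected on all arrays. Its deposited intensity was 194.1, 320.2 and 192.6 in controls 13, 14 and 15, and 402.9, 581.6 and 293.1 in AA 19, 20 and 21. AA 19 and AA 20 were above every control, but AA 21 was below control 14, so the groups overlapped on this scale. In scanner signal above empty spots, before normalization, AA 20 was instead the lowest, at 88.4 against 153.2 to 1338 on the other arrays. The log2 signal was 8.10, 8.65 and 8.13 in the controls and 9.06, 9.15 and 8.66 in AA. On that scale every AA array was above every control, with only 8.66 in AA 21 against 8.65 in control 14 at the boundary. The difference was 0.66 (SE 0.29), or 1.58-fold with a 95% interval of 0.992 to 2.53, and its adjusted p in limma was 0.885. The exact two-sided permutation p was 0.1 in log2 signal and 0.2 in deposited intensity, and the fitted change without AA 20 was 0.56. With no normalization the fitted change was 0.11 (SE 0.88). In these whole-kidney samples, a changed number of cells of a type and a changed amount of RNA per cell cannot be told apart.

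rno-miR-16, encoded beside rno-miR-15b in Smc4, differed little between the group means. Its deposited intensity was 1342, 1209 and 1268 in the controls and 1679, 1400 and 1286 in AA 19, 20 and 21. The 3 controls lay close together and the AA arrays spread upward from them, with AA 21 inside the control range. The log2 signal was 10.47, 10.43 and 10.53 in the controls and 10.89, 10.04 and 10.63 in AA. AA 20 was here the lowest of all arrays, whereas in the deposited table it was above every control. In scanner signal above empty spots, before normalization, AA 20 was also the lowest, at 188.5 against 1145 to 4525 on the other arrays. With subtraction of the empty-spot median as the background correction, the group difference in log2 signal was 0.04. Which of the 2 steps that set these scales apart, background correction or normalization, moved AA 20 was not tested. The means were 10.48 ± 0.05 in controls and 10.52 ± 0.44 in AA (SD, n = 3), a difference of 0.04 (SE 0.30, adjusted p in limma 0.958) with a 95% interval of −0.65 to 0.74. Without AA 20 the difference was 0.28, and without AA 19 it was −0.15.

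rno-miR-195, which shares most of its letters with rno-miR-16 but comes from the locus of rno-miR-497, had a deposited intensity of 466.5, 576.2 and 322.03 in the controls and 474.7, 827.8 and 665.5 in AA 19, 20 and 21. AA 20 and AA 21 were above every control, and AA 19 lay within the control range. In scanner signal above empty spots AA 20 was the lowest array, at 115.3 against 256.0 to 1589 on the others. The log2 signal was 9.09, 9.36 and 8.80 in the controls and 9.27, 9.42 and 9.70 in AA. The difference was 0.38 (SE 0.28, adjusted p in limma 0.885) with a 95% interval of −0.26 to 1.03, and it was 0.41 without AA 20, 0.26 without AA 21 and 0.24 without control 15. With no normalization it was −0.17. The array that was highest differed between members: AA 20 for rno-miR-15b, AA 19 for rno-miR-16 and AA 21 for rno-miR-195 in log2 signal.

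rno-miR-497, the locus partner of rno-miR-195, was near the detection threshold throughout. Its deposited intensity was 21.3, 24.2 and 39.2 in the controls and 32.4, 6.13 and 31.9 in AA 19, 20 and 21. Control 15 and AA 19 were the arrays that passed 32, and AA 20 was the lowest of the 6. The scanner signal was well above background, that is over the median of the empty spots plus 3 of their robust SDs, on 3 control and 2 AA arrays. The log2 difference was −0.09 (SE 0.26, adjusted p in limma 0.936), and without AA 20 it was 0.06, so its sign rested on that array.

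**Figure D1:**
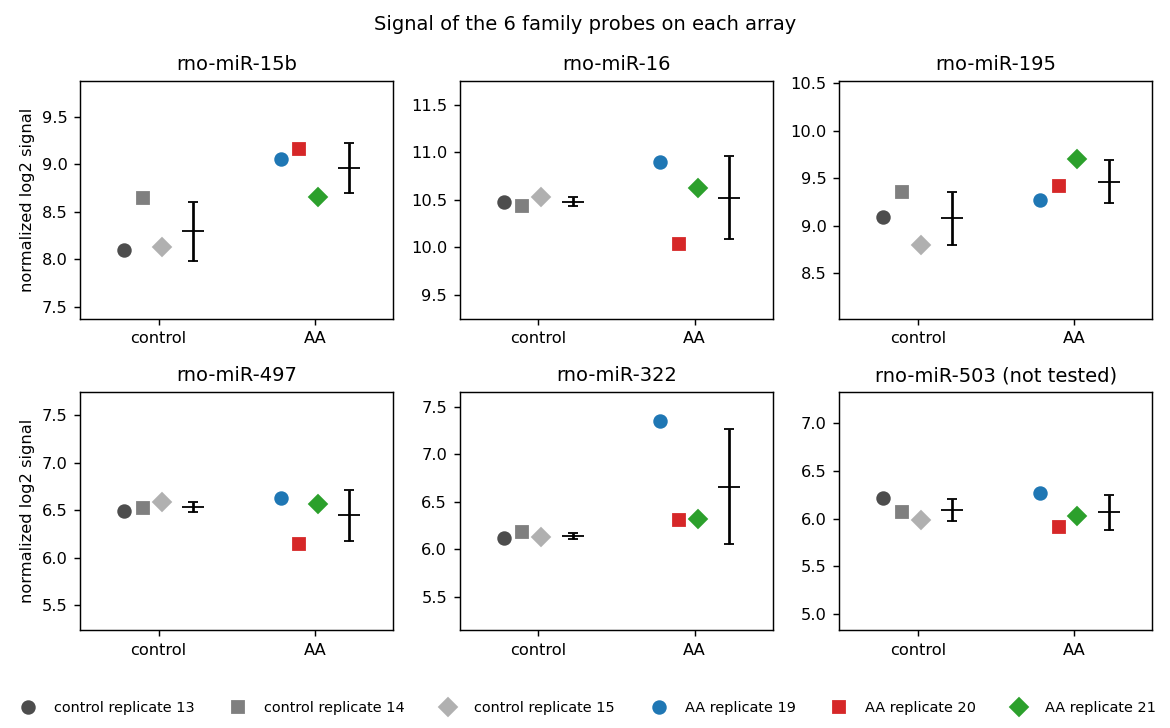
Log2 signal of each member probe on the 6 arrays, with controls and AA side by side, 1 point per rat and bars for the mean ± SD (n = 3); every panel spans the same number of log2 units. In rno-miR-15b the AA points lie above the controls, by 8.66 against 8.65 at the boundary, and in rno-miR-322 AA 19 stands at 7.35 above the 6.31 and 6.32 of AA 20 and AA 21.

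rno-miR-322 was measured above background on AA 19 alone. Its deposited intensity was 3.78, 5.86 and 3.89 in the controls and 115.3, 8.33 and 14.0 in AA 19, 20 and 21. AA 19 was far above the rest, while AA 20 and AA 21 were slightly above every control but below the threshold of 32. The scanner signal above empty spots was 14.5, 8.27 and 7.31 in the controls and 199.8, 12.8 and 12.7 in AA, and was well above background on 0 control arrays and 1 AA array. The log2 means were 6.14 ± 0.03 and 6.66 ± 0.60 (SD, n = 3), a measured difference of 0.52 (SE 0.34, adjusted p in limma 0.885), or 1.43-fold with a 95% interval of 0.817 to 2.51. Because the controls were not well above background, their level is known only as a limit, the lowest signal well above background on the control arrays. The mean log2 signal of the 3 AA arrays was 1.35-fold the mean of that limit over the controls. Only 1 of the 3 AA arrays was measured above background, so 1.35-fold is no lower bound on the change. That figure describes these arrays and rests on AA 19. The exact permutation p was 0.1 on both scales. Without AA 19 the log2 difference was 0.17 (adjusted p in limma 0.779).

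The groups did not overlap in log2 signal for 2 of the 5 tested members, rno-miR-15b and rno-miR-322, both with AA above; over all tested probes 9.98% did not overlap in either direction and 4.42% had AA above. Nothing is read from rno-miR-322 in that count, because it reached the tested set only through AA 19 and its other 5 arrays were not well above background.

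Markers of the kidney and of other cell types were summed per array in deposited intensity. The 9 kidney epithelial miRNAs summed to 10914 to 11615 in controls, and to 11942, 8399 and 12994 in AA 19, 20 and 21, so AA 20 was the lowest of the 6 arrays. Among them miR-194 was lower on every AA array, at 264 to 453 against 608 to 802 in controls (adjusted p in limma 0.885). In contrast, miR-200b was higher on every AA array, at 2412 to 3041 against 1877 to 2071 in controls (adjusted p in limma 0.885). The groups overlapped for each of the others, and 0 of the 8 tested passed the adjusted threshold. In log2 signal 9.98% of all tested probes did not overlap in either direction, so nothing is read from miR-194 and miR-200b. The 3 fibroblast-associated miRNAs, miR-199a-3p, miR-199a-5p and miR-214, summed to 1270 to 1566 in the controls and 1931 to 3331 in AA. The groups did not overlap in this sum, in miR-199a-3p or in miR-214. They overlapped in miR-199a-5p, at 98.4, 20.5 and 110.8 in AA 19, 20 and 21 against 38.4 to 42.5 in controls. Over all tested probes 4.42% had AA above without overlap, but that share is in log2 signal. No such share was computed in deposited intensity, so nothing is read from the lack of overlap here. Of the 3, 0 passed the adjusted threshold. Of the 4 leukocyte miRNAs only miR-150 reached 32, with sums of 323 to 525 in controls and 516 to 576 in AA, while miR-223, miR-142-3p and miR-142-5p were below 32 on all arrays. The red cell miRNAs miR-451 and miR-144 summed to 51.3 to 66.3 in controls and 8.36 to 75.7 in AA, and the endothelial miR-126 read 1210 to 1437 in controls and 602 to 1646 in AA. The muscle miRNA miR-206 was between 66.1 and 599 on all arrays, while miR-1 and miR-133a were below 32 on all. The part of any of these in the family's values was not tested.

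rno-miR-503, the member with the different seed base, was below 32 on every array and was not tested. Its deposited intensity was 6.89, 2.88 and 0.02 in the controls and 13.4, 0.00 and 1.39 in AA 19, 20 and 21, to 2 decimals where under 1. The highest of these values was again on AA 19, the only array of the 6 on which it was well above background. Between the 2 spots that carry each member probe, the SD of log2 signal within an array had a median of 0.148 over 36 member and array combinations, with a range of 0.0119 to 0.458.

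**Figure D2:**
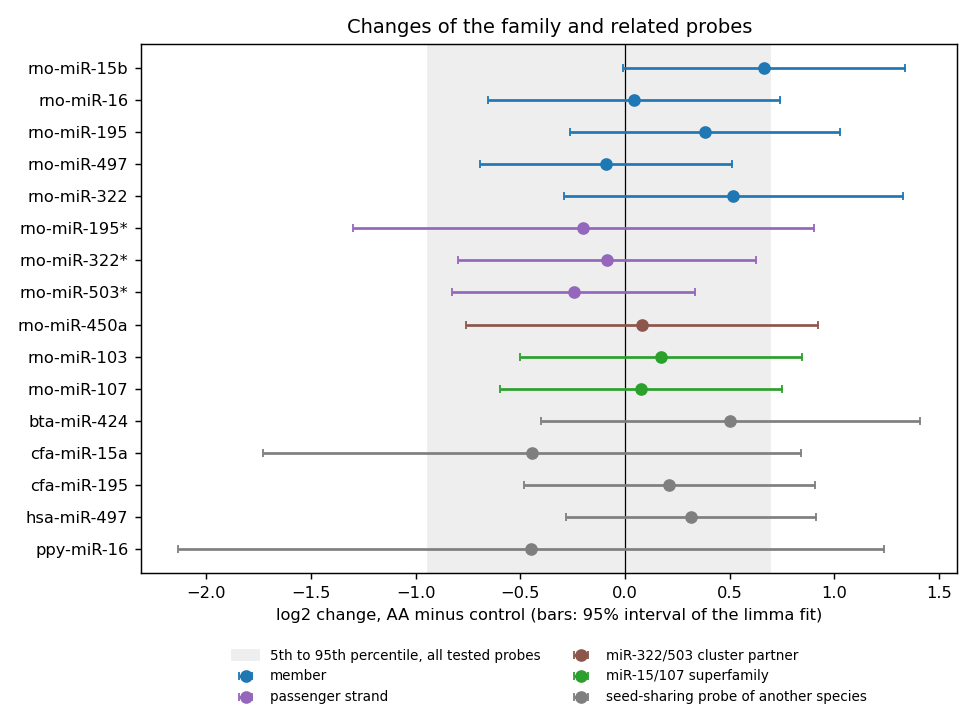
Log2 change, AA minus control, of the tested member probes, related rat probes and named probes of other species, coloured by kind, with 95% intervals from limma; the line marks no change and the grey band the 5th to 95th percentile of all tested probes. Every interval includes 0, and that of rno-miR-15b runs from −0.01 to 1.34.

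The neighbours of rno-miR-322 and rno-miR-503 on the X chromosome were examined next. Mir351 lies 950 bases, Mir542 3892 bases and Mir450a1 5123 bases from the Mir322 hairpin. The probe for rno-miR-450a read 15.7, 15.5 and 17.3 in the controls and 102.8, 0.01 and 2.71 in AA 19, 20 and 21 in deposited intensity. It was high on AA 19 and below every control on the other AA arrays, and its log2 difference was 0.08 (SE 0.36, adjusted p in limma 0.944). rno-miR-351, below 32 on all arrays and not tested, was also highest on AA 19, at 25.8 against 0.00 to 2.00 on the other arrays. rno-miR-542-5p and rno-miR-542-3p stayed at or below 6.53 on all arrays and were not tested.

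The human and cattle counterparts of rno-miR-322, present on the array as probes without a rat name, differ from it by the substitution G21A, counted from 1 at the 5′ end of the rat sequence, and the cattle probe lacks the last base as well. They are shown with the changed base in capitals, because they read nearly the same letters as rno-miR-322.

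hsa-miR-424: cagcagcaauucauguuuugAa
bta-miR-424: cagcagcaauucauguuuugA

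The bta-miR-424 probe gave a deposited intensity of 3.94, 11.1 and 9.96 in the controls and 138.2, 5.98 and 18.1 in AA 19, 20 and 21, and the hsa-miR-424 probe 56.9 on AA 19 and at most 6.51 elsewhere. Both were therefore high on AA 19 only, as rno-miR-322 was. Their log2 differences were 0.50 (SE 0.39) and 0.13 (SE 0.27), with adjusted p-values in limma of 0.885 and 0.921, and bta-miR-424 was 0.0961 without AA 19. Both probes entered the tested set only through AA 19, so nothing is read from these signs. Among the probes for miR-503 of other species, cfa-miR-503, which is the rat sequence without its last 3 bases, read 38.4 on AA 19 and at most 4.69 on the other arrays. These probes can bind the same RNA and are not separate evidence. Over all tested probes, AA 19 was the highest array in log2 signal for 21.0%, and the part of that array's overall signal in the pattern was not tested.

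**Figure D3:**
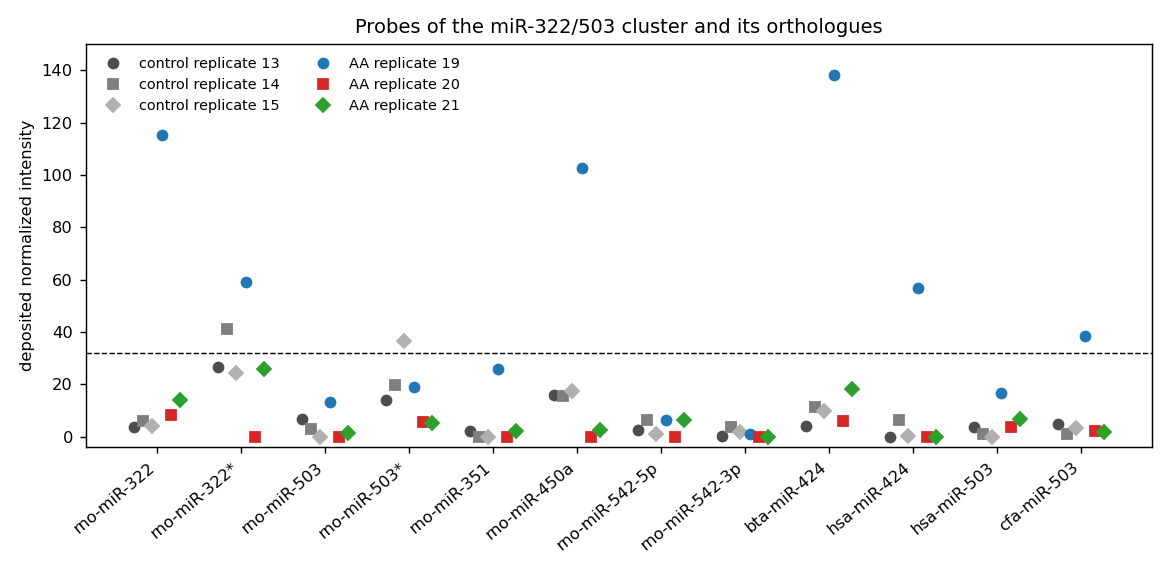
Deposited intensity on each of the 6 arrays for the probes of the miR-322 and miR-503 cluster, its neighbours and the same miRNAs of other species; the dashed line is the threshold of 32. AA 19 is the array above the line for rno-miR-322, at 115.3, for rno-miR-450a, at 102.8, and for bta-miR-424, at 138.2.

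The passenger strands are the hairpin arms that are usually degraded. Of the 6, rno-miR-15b*, rno-miR-16* and rno-miR-497* were below 32 on all arrays in the deposited table and were not tested. rno-miR-322* was 26.6, 41.1 and 24.3 in the controls and 59.0, 0.01 and 26.0 in AA 19, 20 and 21, a log2 difference of −0.09 (adjusted p in limma 0.937). Unlike rno-miR-322 it was well above background on all controls, and AA 20 was the lowest array. rno-miR-195* was 79.4, 74.8 and 319.9 in the controls and 55.3, 145.7 and 108.4 in AA, a difference of −0.20 (adjusted p 0.927) in which control 15 stood high, and without control 15 the difference was 0.31. rno-miR-503* was 14.1, 19.8 and 36.4 in the controls and 18.9, 5.67 and 5.19 in AA, a difference of −0.24 (adjusted p 0.885), with AA 19 inside the control range. The 3 tested passenger strands were thus all lower in AA, with 0 past the adjusted threshold. Whether any arm differed in its change from the other arm was not tested.

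The wider superfamily of miR-15 and miR-107, whose members share an AGCAGC motif near the 5′ end, was represented by rno-miR-103 and rno-miR-107, which are processed from introns of pantothenate kinase genes. rno-miR-103 had a deposited intensity of 1013, 849 and 1417 in the controls and 1118, 1619 and 1222 in AA 19, 20 and 21. rno-miR-107 read 1040, 812 and 1382 in the controls and 1015, 1552 and 1095 in AA. Both were highest on AA 20 in deposited intensity. In log2 signal both were highest on control 15, at 10.66 and 10.64, and AA 20 was the lowest AA array, at 10.25 and 10.17. The groups overlapped on both scales, with log2 differences of 0.17 and 0.08 and adjusted p-values in limma of 0.907 and 0.942. Both moved with the control left out: rno-miR-103 was 0.0354 without control 14 and 0.39 without control 15, and rno-miR-107 was −0.0751 and 0.29. Their sequences are nearly the same, so the probes may share signal.

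A further 34 probes without a rat name carry a target with the seed of a member. Of these, 23 were tested and 0 passed the adjusted threshold or an unadjusted p under 0.05. Of the 23, 9 were higher and 14 lower in AA, with a median log2 change of −0.07 and a range of −0.45 to 0.50, and none of the 23 had groups without overlap. Over all 1132 tested probes, 0.177% passed the adjusted threshold, 4.95% had an unadjusted p under 0.05 in limma and 9.98% did not overlap. Of the 1132, 613 were lower in AA. Many of the 23 share most of their letters and are not independent, so nothing is read from these counts. Besides bta-miR-424, the largest positive difference among the 23 was 0.32 for hsa-miR-497, and the most negative were −0.45 for ppy-miR-16 and −0.44 for cfa-miR-15a. cfa-miR-15a, whose miRNA belongs to the family but has no rat name here, read 198.4, 151.2 and 151.9 in the controls and 318.1, 3.22 and 129.1 in AA 19, 20 and 21, so its negative difference came with a low AA 20 and a high AA 19. hsa-miR-497 is rno-miR-497 without its last base, and read 14.9, 12.3 and 11.4 in the controls and 36.5, 13.0 and 42.4 in AA 19, 20 and 21. Its difference was positive where the rat probe gave −0.09, and both had adjusted p-values in limma of at least 0.885. hsa-miR-497 reached 32 only on AA 19 and AA 21, and bta-miR-424 only on AA 19. Both entered the tested set through AA arrays alone, so nothing is read from their positive signs.

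Probes of other species close to rno-miR-15b and rno-miR-16 read low on array AA 20. Examples are shown with each base that departs from the rat sequence in capitals; cfa-miR-15b and ppy-miR-16 have no changed base and lack the last 2 bases of the rat miRNA, and bta-miR-16b lacks the last.

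gga-miR-15b: uagcagcacaucaugguuuGca
cfa-miR-15b: uagcagcacaucaugguuua
lca-miR-16: uagcagcacguaaauauuggUg
ppy-miR-16: uagcagcacguaaauauugg
bta-miR-16b: uagcagcacguaaauauuggc

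The probe for cfa-miR-15b read 166.1, 213.1 and 159.7 in the controls and 398.5, 16.2 and 222.7 in AA 19, 20 and 21 in deposited intensity. It was above every control on AA 19 and AA 21 and below every control on AA 20, where the rat probe was at its highest, 581.6. In scanner signal above empty spots, cfa-miR-15b gave 12.4 on AA 20 and 419.9 on control 13, and rno-miR-15b gave 88.4 on AA 20 and 515.4 on control 13.

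The gga-miR-15b probe, with the substitution A20G, read 135.0, 130.03 and 121.7 in the controls and 339.2, 23.9 and 165.4 in AA. ppy-miR-16 read 644.8, 394.8 and 524.9 in the controls and 808.3, 99.2 and 564.045 in AA. lca-miR-16, with C21U, read 247.8, 228.6 and 160.7 in the controls and 452.6, 12.1 and 230.0 in AA. In each, AA 20 was the lowest of the 6 arrays and AA 19 the highest. bta-miR-16b did not show this in the deposited table, at 1350, 1222 and 1059 in the controls and 1177, 1421 and 1231 in AA. It was not the only exception there. In deposited intensity AA 20 was the lowest array for 6 of the 9 tested probes closest to rno-miR-15b and 6 of the 7 closest to rno-miR-16. Over the 1131 tested probes of that table it was the lowest for 487.

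Over the 16 tested probes closest to rno-miR-15b or rno-miR-16, all 16 were below their own control mean on AA 20 in log2 signal, by a median of −1.14 and a range of −2.21 to −0.20. On that log2 scale AA 20 was the lowest array for 15 of the 16, against 46.5% of all tested probes, and AA 19 the highest for 15, against 21.0%. On the same array rno-miR-15b was 0.86 above its control mean, rno-miR-195 was 0.34 above and rno-miR-16 was 0.44 below, that is −0.44. This grouping was chosen after the values were seen and carries no test, and since the probes share letters they are not independent. Array AA 20 was also the dimmest, and the part of its low signal in the pattern was not tested.

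**Figure D4:**
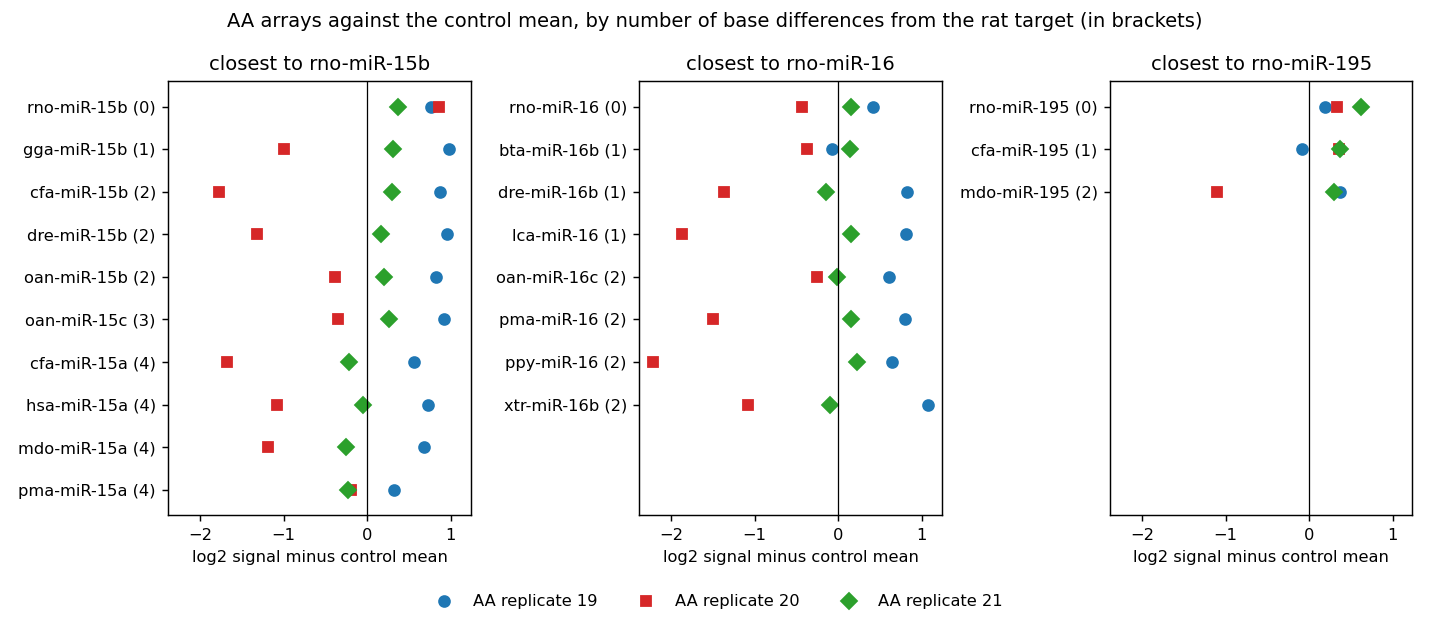
Log2 signal minus the control mean of each AA array, for rno-miR-15b, rno-miR-16 and rno-miR-195 and for tested probes closest to each, with the number of edits to the rat sequence in parentheses. A tested probe 9 edits from rno-miR-195, at −0.69 on AA 20, is not drawn. AA 20 lies left of 0 for all 16 probes closest to rno-miR-15b or rno-miR-16, by −2.21 to −0.20, and at 0.86 for rno-miR-15b itself.

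Near matches of rno-miR-195 were fewer. cfa-miR-195, which holds the whole rat sequence and 1 more base, read 238.7, 336.3 and 165.0 in the controls and 211.1, 343.7 and 305.7 in AA 19, 20 and 21. Its log2 difference was 0.21 (SE 0.30, adjusted p in limma 0.885), and it was 0.0332 without control 15 and 0.39 without control 14. AA 20 was the highest array here in deposited intensity. mdo-miR-195, with the substitution G11A, read 143.6, 256.5 and 86.1 in the controls and 218.1, 23.1 and 192.5 in AA, so here AA 20 was the lowest.

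Rat miRNAs outside the family were ranked by how closely their 6 log2 values, centred on their own mean, followed those of each tested member, as the root mean square difference over 6 arrays and 175 rat probes. This likeness is a description without a test. rno-miR-15b was followed most closely by rno-miR-183 (0.220) and rno-miR-187 (0.251), beside a median of 0.548 over the 175. rno-miR-16 was followed by rno-miR-181c (0.0951) and rno-miR-429 (0.107), beside a median of 0.340.

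rno-miR-195 lay nearest to rno-miR-125b-5p (0.147) and rno-miR-150 (0.151), beside a median of 0.474. rno-miR-322, high on AA 19, lay nearest to rno-miR-20a (0.104) and rno-miR-20b-5p (0.152), beside 0.539. rno-miR-497 lay nearest to rno-miR-505* (0.0435) and rno-miR-29c* (0.126), beside 0.338, but its own values varied by an SD of only 0.178 over the 6 arrays.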

How the data were processed

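Each of the 6 arrays gave 1 single-colour file. A laser scanner recorded Cy3 bound to a tag ligated to poly(A)-tailed small RNA, per the labels. The deposited scanner intensity is the median of each of 15066 spots, neither background-corrected nor normalized. Normalized intensity was also deposited by the authors as 1 table, made by background subtraction and LOWESS. Set against the scanner signal over 566 probes at or above 32 on all arrays, its log2 values gave Pearson's r of 0.969 (AA 20) to 1.00, across probes. It is therefore linear, runs in the same direction and is not centred by probe; its column medians over probes were 2.41, 2.19 and 2.40 for controls 13, 14 and 15 and 2.37, 1.22 and 1.99 for AA 19, 20 and 21. The LOWESS reference is not given in the sources used here.

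Scanner intensity was corrected by normexp with an offset of 50, control and empty spots were removed, the log2 signal was quantile-normalized, and the 2 spots of a standard probe were averaged (limma 3.58.1, R 4.3.3). Probes at or above 32 on at least 1 array in the deposited table (1132) entered lmFit and eBayes; p-values are two-sided. The number of arrays limits the precision. The procedure was tested on simulated data. The members and the lists of related probes and markers were chosen with earlier results of these data known. Named were all members, the rat passenger strands, cluster neighbours and superfamily probes, and the 2 rat probes most like each member. Of the seed-sharing probes, those identical to a member or holding it whole were named. The 2 largest differences each way among those tested were named too. cfa-miR-15b, bta-miR-16b and cfa-miR-503, whose letters lie within a member, were named outside these rules. gga-miR-15b, lca-miR-16, hsa-miR-424 and mdo-miR-195 were added after their values were seen. The alternatives tried were an offset of 16, subtraction of the empty-spot median, cyclic loess, median scaling, no normalization, no filter, 32 or more on at least 3 arrays, the deposited values as log2(value + 16), the methods' t-test, array quality weights, the median over spots, and each array left out. No slide or scan block was fitted, as the labels and headers used here name neither. rno-miR-15a was not analysed here.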

Additional observations from a re-analysis of the deposited data

How the results depend on the processing

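Members past the adjusted threshold numbered 0 in limma and under every alternative run. The difference of rno-miR-15b was positive in all 18 alternatives (0.11 to 0.84, adjusted p 0.502 to 0.991). That of rno-miR-322 was positive in all 17 (0.17 to 2.01, adjusted p 0.375 to 0.991), but nothing is read from this sign. rno-miR-322 reached the tested set only through AA 19, and its other 5 arrays were not well above background. The count over all tested probes was 2; it was 0 with cyclic loess, with median scaling and with no normalization, 44 with array quality weights, and 0 to 3 with 1 array left out (3 without AA 20, 0 without any other). The median change of the members, 0.38, was −0.17 with no normalization and 0.17 to 0.52 with 1 array left out. The median over all tested probes was −0.32 with no normalization and 0.24 with median scaling, against −0.05, so signs under those settings are relative to that shift. Signs turned as follows, and the causes were not tested. With cyclic loess, rno-miR-16 was −0.0092 and rno-miR-322* 0.0724. With median scaling, rno-miR-16 was −0.0497, rno-miR-497 0.36, rno-miR-322* 0.43, rno-miR-503* 0.24, rno-miR-107 −0.0208 and cfa-miR-15a 0.19. With no normalization, rno-miR-16 was −0.62, rno-miR-195 −0.17, rno-miR-103 −0.50, rno-miR-107 −0.59 and cfa-miR-195 −0.35. With subtraction of the empty-spot median, rno-miR-450a was −0.78. With array quality weights, rno-miR-497 was 0.0473, rno-miR-195* 0.23, rno-miR-450a −0.0322 and ppy-miR-16 0.35. With 1 array left out, rno-miR-16 ranged from −0.15 to 0.28, rno-miR-497 from −0.18 to 0.0635, rno-miR-195* from −0.46 to 0.31, rno-miR-322* from −0.30 to 0.13, rno-miR-450a from −0.29 to 0.29, rno-miR-107 from −0.0751 to 0.29, cfa-miR-15a from −0.94 to 0.17 and ppy-miR-16 from −0.996 to 0.43. With AA 20 also left out of the normalization, an alternative chosen after seeing the data, rno-miR-497 was 0.0779, rno-miR-322* 0.16, cfa-miR-15a 0.19 and ppy-miR-16 0.45. Requiring 32 on at least 3 arrays left 3 members tested. No paired analysis was possible because the groups share no replicate numbers. Signal over background limits rno-miR-497, rno-miR-322 and rno-miR-503, and 3 animals per group limit the rest.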
